A study of Rattus norvegicus with 18 samples.

Results

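rno-miR-451-5p and rno-miR-144-3p, here miR-451-5p and miR-144-3p, are the main mature products of a small microRNA (miRNA) cluster that is best known from red blood cells. They were taken by row name from a table of 401 mature miRNAs in rat liver, and both of the 2 names had a row. The series holds 18 libraries of miRNA counts in 3 groups of 6, all from liver at 8 weeks of age and all labelled with the strain ZDF-Leprfa/Crl. The groups were obese rats given colesevelam, obese rats given vehicle, and lean rats with no agent named. In Zucker rats the fa allele disables the receptor for leptin, which leads to obesity, and colesevelam is a resin that holds bile acids in the gut. The lean rats carry the same strain label as the obese ones, so their phenotype label alone sets them apart. The labels do not say that each library came from its own animal, and 10 of the libraries form 5 pairs that share a number in their names, so p-values measure the spread between libraries, which may be partly technical.

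In mammals miR-144 and miR-451 are cut from one primary transcript, which the factor GATA-1 switches on in erythroid precursors. Mature red cells keep much miR-451 after their nucleus is gone, and in mice loss of the cluster leaves red cells sensitive to oxidative stress. The precursor of miR-451 is known for bypassing Dicer: its stem is too short, and Argonaute 2 cuts it instead, so a single strand of the hairpin becomes the miRNA. miR-144 follows the usual Dicer route, which releases a strand from each side of the hairpin. A liver sample holds whatever blood is left in its vessels, and in such bulk RNA fewer cells of a type and less of a miRNA per cell cannot be told apart. Whether the reads described here came from blood or from cells of the liver itself was not tested.

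The mature sequences, from RefSeq annotation of the GRCr8 assembly, are shown with their seeds (bases 2 to 8) in capitals, because the seeds set which mRNAs a miRNA can pair with. All 5 had the same letters in the deposited table, which writes T for U.
miR-451-5p: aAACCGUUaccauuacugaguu
miR-144-3p: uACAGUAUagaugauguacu
miR-144-5p: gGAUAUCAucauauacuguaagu
miR-101a-3p: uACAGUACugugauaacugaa
miR-101b-3p: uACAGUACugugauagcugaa
The 2 cluster mates do not share a seed. No other row of the table had the seed of miR-451-5p or differed from it in a single base. The seed of miR-144-3p differed from that of miR-101a-3p and miR-101b-3p by U8C, counted from the 5′ end, and these liver-abundant miRNAs are given beside it further on. The seed of the little-counted miR-338-5p differed from it by G5A, with 24 counts over all libraries.

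The hairpins are shown with the member in capitals, because the place of the member in the stem is what differs between the 2 precursors.
Mir451a: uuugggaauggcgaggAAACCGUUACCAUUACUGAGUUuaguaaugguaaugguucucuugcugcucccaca
Mir144: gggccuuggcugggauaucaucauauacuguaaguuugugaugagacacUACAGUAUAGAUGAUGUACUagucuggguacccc
In a predicted fold of Mir451a, 17 of the 22 bases of miR-451-5p were paired, all on the 5′ strand, and 4 lay in the terminal loop. In Mir144, 19 of the 20 bases of miR-144-3p were paired on the 3′ strand and 0 lay in the loop. The hairpins stand on the plus strand of chromosome 10 of GRCr8, at 63459397 to 63459479 for Mir144 and 63459569 to 63459640 for Mir451a, with 89 bases between them. Their nearest neighbours in that assembly were the protein-coding genes Flot2 and Eral1. The deposited table places miR-144-3p at 66340730 to 66340749 and miR-451-5p at 66340869 to 66340890 of the plus strand of chromosome 10, in a genome build that no source used here names. The starts of the 2 miRNAs lay 139 bases apart in the deposited coordinates.

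Both miRNAs were rare in these livers. miR-451-5p ranked 109 of 401 rows by mean level in colesevelam, 109 in vehicle and 93 in lean libraries, and made up 0.0115%, 0.0135% and 0.0199% of the counts in those groups. miR-144-3p ranked 155 in colesevelam, 144 in vehicle and 137 in lean libraries. Depth limited both: colesevelam libraries held 32936 to 122881 miRNA counts, vehicle libraries 37909.9 to 147313 and lean libraries 110352 to 881452. Levels are therefore given as CPM, counts scaled to one common total with TMM factors, which assume that most miRNAs do not differ, so every level is a relative one.

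miR-451-5p was counted in every library. The 6 colesevelam libraries held 3, 10, 9, 2, 27 and 2 counts of it, which is 84.3, 178, 99.5, 53.3, 269 and 37.7 CPM. The 6 vehicle libraries held 6, 3, 5, 9, 34 and 4 counts, which is 149, 62.0, 122, 178, 221 and 46.9 CPM. The 6 lean libraries held 16, 188, 36, 59, 22 and 65 counts, which is 138, 246, 158, 140.4, 139 and 381 CPM. Lean 6 and colesevelam 5 stood highest in their groups, and the range of each group overlapped with that of both others. No lean library was below 138 CPM, whereas 4 colesevelam and 3 vehicle libraries were.

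**Figure D1:**
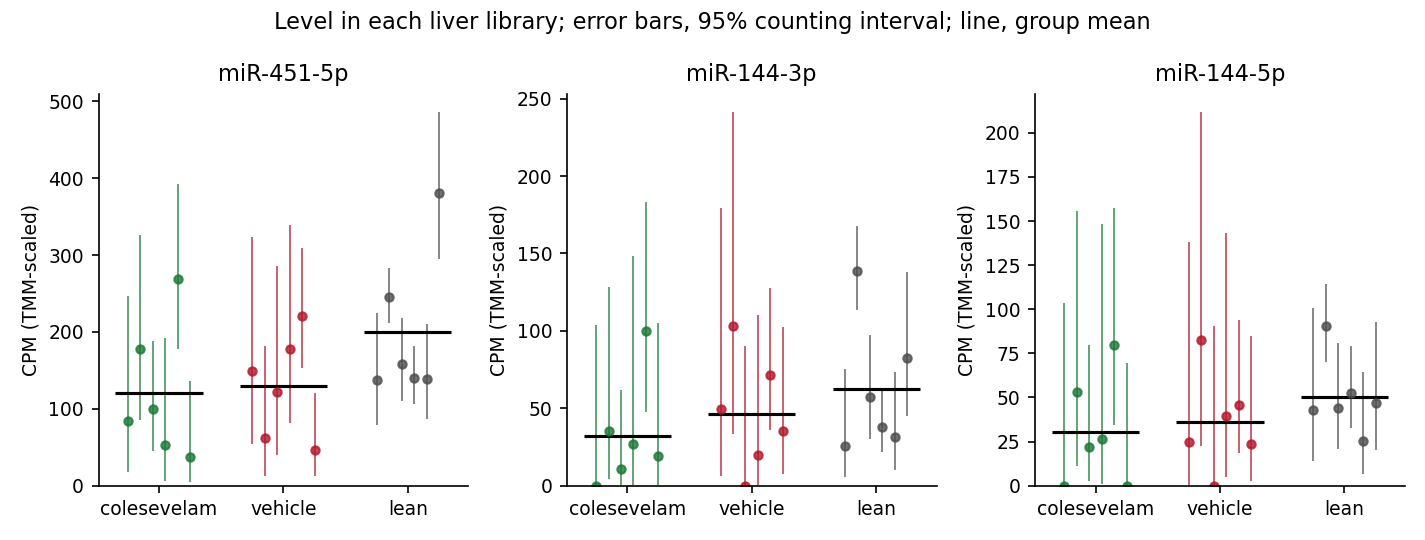
Level of miR-451-5p, miR-144-3p and miR-144-5p in CPM (y axis, from 0) in each of the 6 libraries of the colesevelam, vehicle and lean groups (x axis). Points are libraries in the order of their replicate numbers, error bars are 95% counting intervals and black lines are group means; miR-451-5p averaged 120 CPM in colesevelam, 130 CPM in vehicle and 200.4 CPM in lean libraries, with overlapping groups in every panel.

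Counting error was a larger part of the scatter in the obese groups than in the lean group, though the scatter exceeded it in every group. The SD of miR-451-5p over 6 libraries was 87.9 CPM in colesevelam, 67.2 CPM in vehicle and 97.9 CPM in lean libraries, where counting error alone would give 51.6, 51.2 and 31.6 CPM. In colesevelam 6, for example, 2 counts gave 37.7 CPM with a 95% counting interval of 4.57 to 136 CPM. In the deep library lean 2, 188 counts gave 246 CPM with an interval of 212 to 284 CPM. These intervals cover counting error only, since no source used here names molecular identifiers, without which reads need not stand for separate molecules.

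miR-451-5p did not differ past the threshold between colesevelam-treated and vehicle-treated obese rats, and the limits on its difference were wide. The level averaged 120 ± 87.9 CPM in colesevelam and 130 ± 67.2 CPM in vehicle libraries (SD, n = 6 each). The log2 fold change was −0.04 ± 0.46 (SE; edgeR quasi-likelihood test, BH-adjusted p = 0.981), with a 95% interval of −1.0 to 0.91. In this comparison 10.7% of the 112 tested miRNAs were called, 7.14% higher and 3.57% lower. By the exact two-sided permutation test the log2(CPM + 1) values differed by −0.23 (p = 0.690, adjusted p = 0.777 over 9 such tests). When each library was left out in turn, the sign turned in 6 of 12 cases (log2 fold change 0.27 without vehicle 5, −0.45 without colesevelam 5) and with upper-quartile factors (0.01).

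In vehicle-treated obese rats miR-451-5p was 1.5-fold lower than in lean rats by its point estimate, a difference that did not pass the test. The level averaged 130 ± 67.2 CPM in vehicle and 200.4 ± 97.9 CPM in lean libraries (SD, n = 6 each). Of the 6 vehicle libraries 3 lay below every lean one, on 3 to 5 counts each. The log2 fold change was −0.59 ± 0.41 (edgeR adjusted p = 0.490, unadjusted p = 0.171), with a 95% interval of −1.44 to 0.27. Leaving out each library in turn gave −0.90 (without vehicle 5) to −0.31 (without lean 6). Of the tested miRNAs 6.25% were called in this comparison, 3.57% higher and 2.68% lower. The exact permutation test gave a difference of −0.70 in log2(CPM + 1) (p = 0.154, adjusted p = 0.643).

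Colesevelam-treated rats stood in the same relation to lean rats. miR-451-5p was 1.55-fold lower by its point estimate and did not pass, at −0.63 ± 0.42 on the log2 scale (SE; edgeR adjusted p = 0.295) with a 95% interval of −1.49 to 0.23. Leaving out each library in turn gave −1.10 (without colesevelam 5, edgeR adjusted p = 0.0797) to −0.35 (without lean 6, edgeR adjusted p = 0.610). Of the tested miRNAs 21.4% were called here, 11.6% higher and 9.82% lower. The exact permutation test gave a difference of −0.93 (p = 0.0909, adjusted p = 0.643). The order of the group means was lean, vehicle, colesevelam from high to low, and neither neighbouring pair in that order passed the test. DESeq2 likewise called miR-451-5p in none of the 3 comparisons (adjusted p = 0.960 for colesevelam against vehicle, 0.993 for vehicle against lean and 0.336 for colesevelam against lean).

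Depth moved with these groups. Of the library totals given above, those of the obese groups were mostly lower than those of the lean group, and miR-451-5p was higher in deeper libraries (Pearson r = 0.52, permutation p = 0.0266, adjusted p = 0.0379; Spearman rho = 0.54, permutation p = 0.0222, adjusted p = 0.0370; 18 libraries). Without the 2 deepest libraries, lean 2 and lean 4, r was 0.54. Within groups of 6 the r was 0.57 in colesevelam, 0.26 in vehicle and 0.20 in lean libraries. With the log2 library total as a covariate, an alternative chosen after seeing the data, the log2 fold change was −0.07 ± 0.52 for vehicle against lean and −0.12 ± 0.52 for colesevelam against lean (SE). Group and depth are largely confounded in this design, so that their parts cannot be told apart.

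The authors' deposited table gives larger differences from lean livers. In the authors' deposited table the log2 fold change of miR-451-5p was −2.80 for vehicle over lean (adjusted p = 0.000189) and −3.23 for colesevelam over lean (adjusted p = 5.59e-06), both marked as significant, and −0.44 for colesevelam over vehicle (adjusted p = 0.848). The authors' deposited table lists miR-144-3p at −3.0 for vehicle over lean (adjusted p = 0.00348) and −3.77 for colesevelam over lean (adjusted p = 0.000377). The authors' size factors, recovered from that table, ran from 0.73 in lean 1 to 1.33 in colesevelam 3 and did not follow the miRNA totals. Put into edgeR they gave −2.79 ± 0.65 (SE) for miR-451-5p in vehicle against lean (edgeR adjusted p = 9.07e-05) and −3.22 ± 0.66 in colesevelam against lean (edgeR adjusted p = 7.73e-06). With those factors the median of all 112 tested miRNAs was −2.38 and −2.76 in these comparisons, and 109 and 108 of them were called lower. Between colesevelam and vehicle, where the median was −0.36, it was at −0.42 ± 0.64 (edgeR adjusted p = 0.856).

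**Figure D2:**
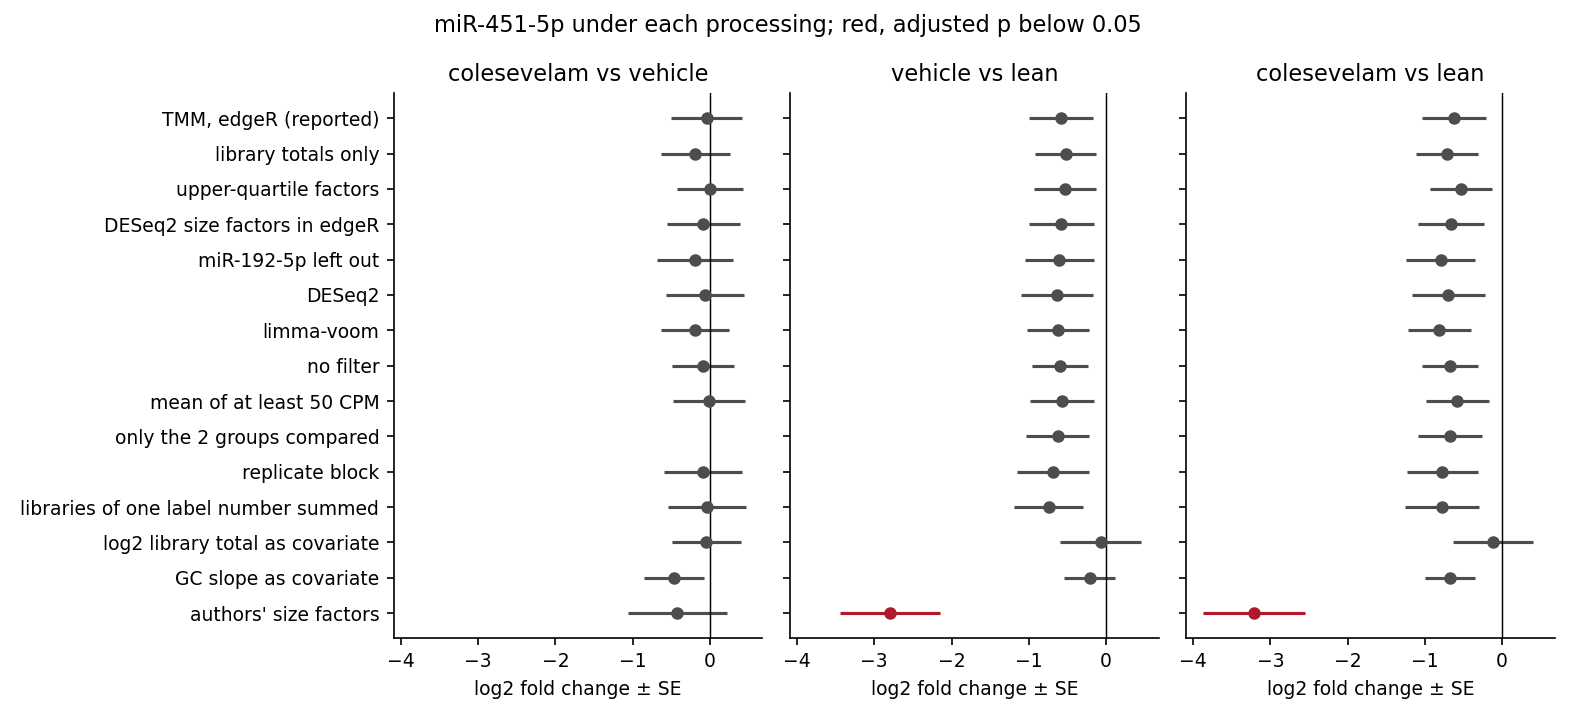
Log2 fold change of miR-451-5p (x axis, points with SE) under each processing (rows) in colesevelam against vehicle, vehicle against lean and colesevelam against lean; red marks an adjusted p below 0.05. With the authors' size factors alone the values reach −2.79 and −3.22 against lean and are called; the fit of only 2 groups has no point for colesevelam against vehicle, where the counts were too low to test.

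miR-144-3p, from the 3′ side of the Mir144 hairpin, had too few counts for the model across all miRNAs. The 6 colesevelam libraries held 0, 2, 1, 1, 10 and 1 counts, which is 0, 35.5, 11.1, 26.6, 99.8 and 18.9 CPM. The 6 vehicle libraries held 2, 5, 0, 1, 11 and 3 counts, which is 49.7, 103, 0, 19.8, 71.5 and 35.2 CPM. The 6 lean libraries held 3, 106, 13, 16, 5 and 14 counts, which is 25.9, 139, 57.0, 38.1, 31.6 and 82.2 CPM. It was counted in 5 colesevelam, 5 vehicle and all 6 lean libraries, and all groups overlapped. The library colesevelam 1, with 0 counts, allowed up to 84.3 CPM, and vehicle 3, with 0 counts, up to 73.4 CPM, so neither shows that the miRNA was absent.

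The level of miR-144-3p did not differ past the threshold between any 2 groups. It averaged 31.98 ± 35.4 CPM in colesevelam, 46.6 ± 37.1 CPM in vehicle and 62.2 ± 42.7 CPM in lean libraries (SD, n = 6 each). By the exact two-sided permutation test the difference was −14.6 CPM for colesevelam minus vehicle (p = 0.489, adjusted p = 0.668), −15.6 CPM for vehicle minus lean (p = 0.519, adjusted p = 0.668) and −30.2 CPM for colesevelam minus lean (p = 0.214, adjusted p = 0.643). Colesevelam minus vehicle was −3.26 CPM without vehicle 2 and −28.2 CPM without colesevelam 5. The smallest p that 6 libraries against 6 allow is 0.00216. The order of the means was the same as for miR-451-5p, and again no neighbours in it passed the test. Without lean 2, which held 106 of the 157 lean counts, the difference of vehicle minus lean was −0.344 CPM and that of colesevelam minus lean −14.96 CPM.

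The other arm of the Mir144 hairpin was nearly as abundant. miR-144-5p had 14 counts beside 15 of miR-144-3p over the colesevelam libraries, 16 beside 22 over the vehicle libraries and 118 beside 157 over the lean libraries. Its share of the reads of both arms was 48.3% in colesevelam (exact 95% binomial interval 29.4 to 67.5%), 42.1% in vehicle (26.3 to 59.2%) and 42.9% in lean libraries (37.0 to 49.0%). In the authors' deposited table miR-144-5p was at −3.04 for vehicle over lean and −3.45 for colesevelam over lean. Both arms were at 0 in 2 libraries. The 5p arm had more counts than the 3p arm in 5 of 18 libraries. The other 13 include those 2 and colesevelam 4, which held 1 count of each arm.

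The Mir451a hairpin gave reads almost only from its 5′ side. miR-451-3p had 0 counts beside 53 of miR-451-5p in colesevelam, 0 beside 61 in vehicle and 2 beside 386 in lean libraries. Over all libraries the 3p side made up 0.398% of the reads of both (exact 95% interval 0.0483 to 1.43%), where the 5p arm of miR-144 made up 43.3% of the reads of its hairpin (38.0 to 48.7%). The 2 intervals do not overlap, and pooled counts carry counting error only. In the predicted folds shown above, miR-451-5p is the member that runs into the loop.

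**Figure D3:**
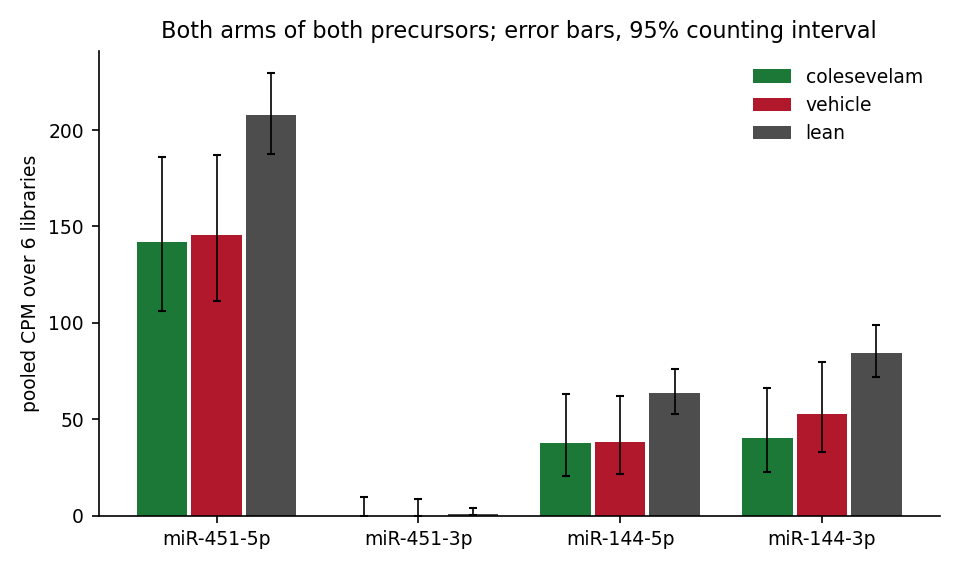
Pooled level of both arms of the Mir451a and Mir144 hairpins (x axis) in CPM over the 6 libraries of each group (y axis, from 0), with 95% counting intervals. miR-451-3p stays near 0 in all groups (0 counts in colesevelam, 0 in vehicle and 2 in lean libraries), while miR-144-5p and miR-144-3p stand close together within each group; without lean 2 the pooled lean level of miR-144-3p is 46.7 CPM in place of 84.5 CPM.

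The ratio of the 2 cluster mates within a library does not depend on how libraries are scaled. miR-144-3p had 0.283 counts per count of miR-451-5p over the colesevelam libraries, 0.361 over the vehicle libraries and 0.407 over the lean libraries. Without lean 2 the pooled lean ratio was 0.258. The obese groups also lean on single libraries, and their pooled ratios without these were not taken. Colesevelam 5 held 10 of 15 colesevelam counts of miR-144-3p and 27 of 53 of miR-451-5p. Vehicle 5 held 11 of 22 and 34 of 61 vehicle counts of these. Averaged over libraries the ratio was 0.280 ± 0.209 in colesevelam, 0.531 ± 0.613 in vehicle and 0.304 ± 0.141 in lean libraries (SD, n = 6 each). Vehicle 2, with 5 counts of miR-144-3p and 3 of miR-451-5p, was the library in which miR-144-3p was the higher, and in the other 17 miR-451-5p was. The ratio differed by −0.251 for colesevelam minus vehicle (exact permutation p = 0.442, adjusted p = 0.668), by 0.226 for vehicle minus lean (exact permutation p = 0.502, adjusted p = 0.668) and by −0.0241 for colesevelam minus lean (exact permutation p = 0.825). Without vehicle 2 the difference of vehicle minus lean was −0.000786.

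Across libraries the 2 members went together loosely by Pearson's r and more closely by rank. Over 18 libraries Pearson's r of log2(CPM + 1) was 0.34 (permutation p = 0.169, adjusted p = 0.211 over 10 p-values from 5 relations) and Spearman's rho 0.58 (permutation p = 0.0132, adjusted p = 0.0370). Without colesevelam 6 and vehicle 6, the libraries farthest from the median of miR-451-5p, r was 0.42 and rho 0.56. Within groups the r was 0.39 in colesevelam, −0.12 in vehicle and 0.78 in lean libraries (n = 6 each), so it had opposite signs in vehicle and lean libraries; that difference was not tested. The lean libraries are also the deep ones. A colesevelam library held 0 to 10 counts of miR-144-3p and a vehicle library 0 to 11, so counting error is large there. How far that error set the r values was not tested. miR-144-3p too was higher in deeper libraries (Pearson r = 0.54, permutation p = 0.0209, adjusted p = 0.0370; Spearman rho = 0.56, permutation p = 0.0172, adjusted p = 0.0370; r = 0.55 without lean 2 and lean 4). Within groups that r was 0.67 in colesevelam, 0.44 in vehicle and 0.67 in lean libraries. The 2 libraries with 0 counts of miR-144-3p, colesevelam 1 and vehicle 3, were also the shallowest, at 32936 and 37909.9 miRNA counts. They entered at 0 although they allowed up to 84.3 and 73.4 CPM. How far these zeros set the relation of miR-144-3p with depth was not tested.

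**Figure D4:**
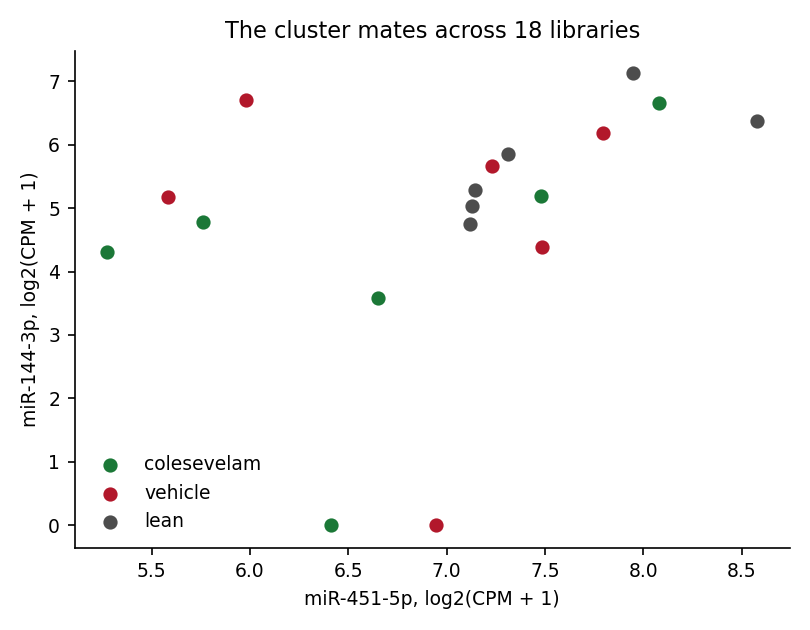
Level of miR-144-3p against miR-451-5p, both as log2(CPM + 1), in each of 18 libraries, coloured by group. The 6 lean libraries lie along a rising line (r = 0.78), the vehicle libraries show no such line (r = −0.12), and the 2 points at 0 are libraries with 0 counts of miR-144-3p.

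Some libraries that share a number in their names were far apart in miR-451-5p by their point values. Colesevelam 4 and 5 were at 53.3 and 269 CPM, which is 2.32 apart on the log2 scale. These values rest on 2 and 27 counts, and their 95% counting intervals, 6.45 to 192 and 178 to 392 CPM, overlap. Colesevelam 2 and 3 were 0.83 apart, vehicle 3 and 4 0.54, lean 1 and 2 0.83 and lean 4 and 5 0.01. miR-144-3p had 1 and 10 counts in colesevelam 4 and 5, and 3 and 106 counts in lean 1 and 2. What the shared number stands for is not given in the sources used here.

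miRNAs known from blood cells were followed as 2 lists, both of which hold the 2 members. Of 17 names in the erythroid list 15 matched a row and 7 had enough counts to be tested, miR-451-5p among them and also miR-16-5p and miR-92a-3p, which many other tissues also make; miR-486 was not analysed here. edgeR called 0 of the 7 in each comparison, as did DESeq2. Of all 112 tested miRNAs edgeR called 10.7% in colesevelam against vehicle, 6.25% in vehicle against lean and 21.4% in colesevelam against lean. In the last of these 2 of the 7, miR-15b-5p and miR-25-3p, had an unadjusted edgeR p under 0.05, as did 39.3% of all tested miRNAs. The median log2 fold change of the 7 was −0.19 for colesevelam against vehicle, −0.02 for vehicle against lean and −0.11 for colesevelam against lean, beside −0.01, 0.01 and −0.08 over all 112 tested miRNAs. Without miR-451-5p the median of the other 6 was −0.28, 0.12 and −0.04 in the same order of comparisons. miR-16-5p, at 3761 ± 1058 CPM in colesevelam, 3316 ± 639 CPM in vehicle and 4058 ± 896 CPM in lean libraries, was far more abundant than either member and was not called in any comparison (smallest edgeR adjusted p = 0.490).

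A narrower list held 9 names of erythroid and white blood cell miRNAs with few other sources in liver, of which 7 matched a row and 3 were tested. Of the 112 tested miRNAs 3.57% were called lower in colesevelam against vehicle, 2.68% in vehicle against lean and 9.82% in colesevelam against lean. The tested rows were miR-451-5p, the leukocyte miRNA miR-142-5p and the lymphocyte miRNA miR-150-5p. In vehicle against lean 1 of the 3 fell, miR-142-5p (log2 fold change −1.27 ± 0.36, edgeR adjusted p = 0.0328). In colesevelam against vehicle 1 fell, miR-150-5p (−1.27 ± 0.38, edgeR adjusted p = 0.0340), and in colesevelam against lean both of these fell, at −1.18 ± 0.36 and −1.27 ± 0.37 (edgeR adjusted p = 0.0236 and 0.0179). Leaving out a single library ended the call of miR-142-5p for vehicle against lean in 8 of 12 cases (vehicle 1, 2, 3, 4 or 6, or lean 2, 4 or 6) and for colesevelam against lean in 5 of 12 (colesevelam 1, 2, 4 or 6, or lean 2). It ended the call of miR-150-5p for colesevelam against vehicle in 9 of 12 (colesevelam 2 to 6, or vehicle 1, 2, 3 or 6) and for colesevelam against lean in 0 of 12. The call of miR-150-5p for colesevelam against vehicle was also lost with the replicate block (edgeR adjusted p = 0.101), after summing libraries that share a label number (0.0714), with upper-quartile factors (0.0643), with limma-voom (0.102) and with the authors' size factors (0.201). Its call against lean was lost with summed libraries (edgeR adjusted p = 0.0692) and upper-quartile factors (0.0614). With limma-voom the calls of miR-142-5p were lost in both comparisons (adjusted p = 0.0805 for vehicle against lean and 0.0571 for colesevelam against lean), and that of vehicle against lean also in a fit of only these groups (edgeR adjusted p = 0.105) and without miR-192-5p (0.0538). With the log2 library total as a covariate none of the 3 calls against lean was made. miR-142-5p was then at −0.24 for vehicle against lean and −0.18 for colesevelam against lean.

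The 4 white blood cell rows of the narrow list, miR-142-5p, miR-142-3p, miR-150-5p and miR-223-3p, summed to 740.4 to 1517 CPM (median 897) in colesevelam, 1031 to 1524 CPM (median 1426) in vehicle and 1569 to 3742 CPM (median 1991) in lean libraries. On this scale every colesevelam and every vehicle library lay below every lean one, by a narrow gap. Alone, neither miR-142-5p nor miR-150-5p parted either obese group from the lean group in this way. miR-142-5p was at 1188 CPM in colesevelam 5 and 969 CPM in vehicle 5, above lean 3 at 693 CPM. miR-150-5p was at 205 CPM in lean 6, below vehicle 4 at 278 CPM and colesevelam 1 at 393 CPM. The sum was chosen after seeing the data, and how many other miRNAs part the groups as it did was not tested. Scaled by library totals alone, vehicle 6 reached 1817 CPM, above 3 of the 6 lean libraries, while every colesevelam library still lay below every lean one. Of its rarely counted rows, miR-223-3p, a miRNA of granulocytes and platelets, had 8 counts in colesevelam, 7 in vehicle and 104 in lean libraries, and miR-142-3p had 1, 5 and 63. Pooled over libraries miR-223-3p was at 21.4 CPM in colesevelam, 16.7 CPM in vehicle and 56.0 CPM in lean livers, with counting intervals of 9.26 to 42.2, 6.72 to 34.4 and 45.8 to 67.8 CPM. Lean 2 held 64 of the 104 lean counts of miR-223-3p and 40 of the 63 of miR-142-3p, and without it the lean level of miR-223-3p was 36.6 CPM (26.1 to 49.8 CPM), whose interval overlaps with those of both obese groups. The wider white blood cell list, which also holds the abundant miR-21-5p, did not part the groups. Its summed level had a median of 59805 CPM in colesevelam, 56782 CPM in vehicle and 59798 CPM in lean libraries. In that list miR-146a-5p rose in colesevelam against lean (log2 fold change 1.15, edgeR adjusted p = 0.00322). That call was lost with the log2 library total as a covariate (edgeR adjusted p = 0.0538). The part of blood or of white blood cells in the levels of miR-451-5p and miR-144-3p was not tested.

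Among the other tested miRNAs, those most like miR-451-5p in how they scattered within groups were miR-19b-3p (r = 0.68 over 18 libraries), miR-126a-3p (0.68), miR-16-5p (0.67), miR-195-5p (0.67) and miR-30e-5p (0.66). Of these miR-126a-3p is a miRNA of endothelium, and miR-16-5p and miR-195-5p belong to one seed family. At the other end stood miR-125b-2-3p (r = −0.75). miR-92a-3p, a member of the erythroid list, was also near the bottom, at −0.65. Likeness went with base composition: across miRNAs its r with GC content was −0.49, which describes miRNAs that share the same libraries. The median likeness was 0.48 among 19 miRNAs with a GC content of 40% or less and −0.34 among 17 with 55% or more.

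miR-451-5p is itself poor in G and C, at 36.4% against a median of 45.5% over the tested miRNAs, and 14 of the 112 were at or below it. miR-144-3p is at 30% and miR-144-5p at 30.4%. In each library the slope of level on GC content over the tested miRNAs, miR-451-5p among them, gives how far GC-rich miRNAs stood out. It ran from −0.36 to 0.22 log2 units per 10 percentage points of GC in colesevelam, from −0.32 to 0.45 in vehicle and from −0.37 to 0.20 in lean libraries. miR-451-5p was lower where the slope was higher (Pearson r = −0.59, permutation p = 0.0105, adjusted p = 0.0370; Spearman rho = −0.59, permutation p = 0.0108, adjusted p = 0.0370; r = −0.56 without lean 4 and colesevelam 5). It was so within colesevelam (r = −0.74), vehicle (−0.59) and lean libraries (−0.58). A higher slope means that GC-poor miRNAs stood lower as a set, which favours a negative r for any one of them. The p-values of this relation therefore show nothing particular to miR-451-5p. For miR-144-3p no such relation passed (Pearson r = −0.21, permutation p = 0.412; Spearman rho = −0.19, permutation p = 0.450). With the slope as a covariate, an alternative chosen after seeing the data, miR-451-5p was at −0.46 ± 0.39 for colesevelam against vehicle, −0.21 ± 0.33 for vehicle against lean and −0.67 ± 0.33 for colesevelam against lean, and was called in none (smallest edgeR adjusted p = 0.102).

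**Figure D5:**
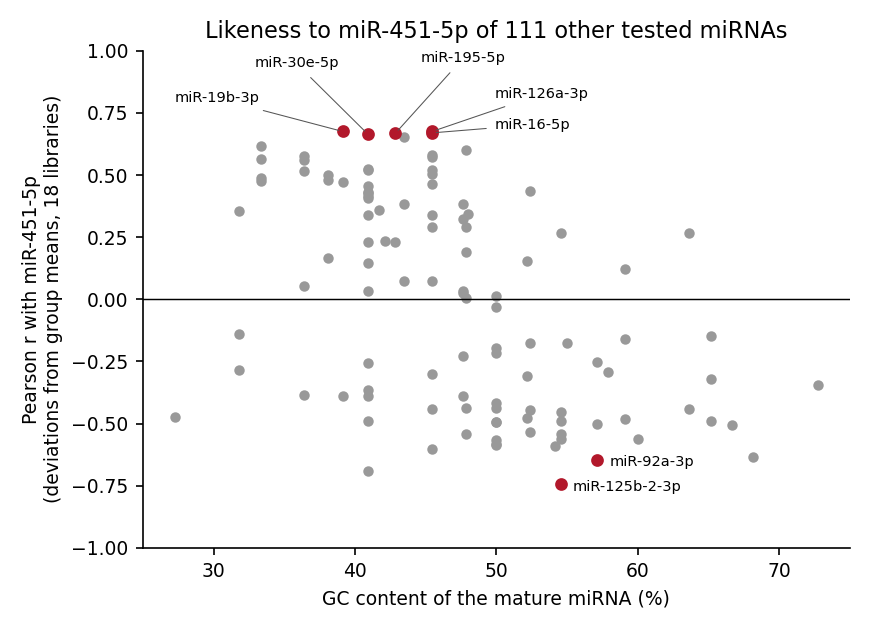
Likeness of the other tested miRNAs to miR-451-5p (y axis, Pearson r of deviations from group means over 18 libraries) against the GC content of the mature miRNA (x axis, %). Red points mark the 5 most alike, miR-92a-3p and the least alike, miR-125b-2-3p; GC-rich miRNAs mostly lie below 0.

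The miRNAs of nearly the same seed as miR-144-3p were far more abundant than it. miR-101b-3p averaged 7679 ± 2001 CPM in colesevelam, 7759 ± 2593 CPM in vehicle and 9846 ± 3326 CPM in lean libraries. miR-101a-3p averaged 2209 ± 462 CPM in colesevelam, 2980 ± 1302 CPM in vehicle and 3979 ± 1592 CPM in lean libraries. These 2 differ in 1 base, so their reads can be shared. miR-101a-3p fell in colesevelam against lean livers (log2 fold change −0.85 ± 0.29, edgeR adjusted p = 0.0380), a call lost on leaving out a library in 7 of 12 cases (colesevelam 1, 2, 4 or 6, or lean 2, 4 or 6). The call was also lost with the replicate block (edgeR adjusted p = 0.0802), after summing libraries that share a label number (0.0692), with limma-voom (0.0706), with rows of at least 50 CPM on average (0.0670) and with the log2 library total as a covariate, where the log2 fold change was −0.29 (0.660). miR-101b-3p was at −0.36 ± 0.25 in that comparison (edgeR adjusted p = 0.334), and neither passed in the other 2 comparisons.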

How the data were processed

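The authors deposited one table of estimated counts per mature miRNA for 18 libraries, not scaled between libraries, per the file headers. Bowtie 1.1.2 and DESeq2 1.18.1 are named, with no role, in the submitters' processing notes; no source used here names the trimming, counting tool, annotation or build. Per the labels' protocols, RNA came from a Norgen kit and libraries from an Illumina TruSeq RNA kit. The deposited table also holds the authors' mean scaled counts per comparison, log2 fold changes and p-values. No column of per-library values was left unmatched.

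Counts were rounded to whole numbers (297 of 7218 values were not whole, none of a member). Rows were kept by filterByExpr (minimum count 10, minimum total 15), which left 112. TMM factors ran from 0.815 to 1.19. One robust quasi-likelihood fit over all libraries (R 4.3.3, package edgeR 4.0.16) gave the tests, BH-adjusted over all rows tested, at 0.05. The script was tested on simulated data. SE is the log2 fold change over the square root of F. miR-144-3p and ratios were compared by exact permutation tests over libraries (Python 3.11.15), adjusted over 9 tests; relations used 100000 permutations. Folds were predicted with RNAfold 2.7.2. The authors' size factors were recovered by least squares from their mean scaled counts (all 183 and 182 rows against lean, 126 of 127 otherwise). No pair of libraries in a group agreed within sampling noise (smallest chi-square per degree of freedom 5.73). A count of 0 allows 3 counts. DESeq2 1.42.0 and limma 3.58.1 were alternatives. Named besides the members were miRNAs of lists of erythroid, white blood cell, endothelial and hepatocyte miRNAs, the 5 most like miR-451-5p and the least like, and those with nearly the seed of a member; naming miR-92a-3p apart from its list was chosen after its value was seen. Members and lists were chosen with earlier results of these data known. The sum of white blood cell rows and its other scaling, pooled values without lean 2, and the erythroid list without miR-451-5p were chosen after seeing the data.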

Additional observations from a re-analysis of the deposited data

Results flagged for a closer look

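miR-144-3p stood at 99.8 CPM in colesevelam 5, apart from the other 5 colesevelam libraries, which lay between 0 and 35.5 CPM. Its gap to the next library was large for a group of 6. The value rests on 10 counts, with a 95% counting interval of 47.9 to 184 CPM, and this is the deepest colesevelam library. Of 12 groups of values examined this way 1 stood out, and chance alone marks about 1 group in 20.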

How the results depend on the processing

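Under the alternatives run, miR-451-5p and miR-144-3p stayed short of the threshold except with the authors' size factors, and kept their direction except where named here. With the authors' size factors miR-451-5p was called against lean, at −2.79 for vehicle and −3.22 for colesevelam. Colesevelam against vehicle changed sign with upper-quartile factors (0.0056). Leaving out a library, its log2 fold change ran from −0.45 to 0.27 for colesevelam against vehicle, −0.90 to −0.31 for vehicle against lean and −1.10 to −0.35 for colesevelam against lean, and the permutation difference from −0.52 to 0.041, −0.89 to −0.45 and −1.22 to −0.66. For miR-144-3p the same ranges were −28.2 to −3.26, −27.0 to −0.344 and −43.8 to −14.96 CPM, and for the ratio −0.357 to −0.0233, −0.000786 to 0.333 and −0.0681 to 0.0319. Scored as detected or not, miR-144-3p differed by 0 between colesevelam and vehicle. On a log scale the ratio of colesevelam against lean was 0.0250. The relation of the 2 members had r between 0.21 and 0.44 under 3 alternatives. With a replicate block miR-451-5p was at −0.09 for colesevelam against vehicle, −0.68 for vehicle against lean and −0.77 for colesevelam against lean, and the block changed no call of a member; it ended those of miR-150-5p and miR-148a-5p for colesevelam against vehicle and of miR-101a-3p for colesevelam against lean. The labels do not say whether the sample numbers pair the libraries. Deviations of same-numbered libraries correlated between −0.64 and 0.58, a spread that does not settle it. The fit of only colesevelam and vehicle could not test miR-451-5p, which fell under the filter. Counts of miRNAs called ran from 2 to 25 for colesevelam against vehicle (12 as reported), 5 to 110 for vehicle against lean (7 as reported) and 17 to 109 for colesevelam against lean (24 as reported), where 2, 110 and 109 came with the authors' size factors. The GC slope as a covariate gave 25, 16 and 44. In colesevelam against vehicle the replicate block, summed libraries of one label number, no filter, and leaving out vehicle 6 gave 7 each, and upper-quartile factors gave 6. Of these calls 4 of 12 were lower as reported, 0 of 6 with upper-quartile factors and 7 of 14 with library totals only, and in colesevelam against lean 11 of 24 as reported and 18 of 29 with library totals only; the cause was not tested. With the authors' size factors miR-146a-5p, of the list of white blood cell miRNAs, turned to −1.43 in colesevelam against lean, against 1.15 as reported. Only the size factors differed between these fits, and the median of all 112 tested miRNAs was −2.76 with them, against −0.08 as reported. Why those factors do not follow the miRNA totals was not tested. In the wider white blood cell list 1 of 4 tested members rose (miR-146a-5p) and 1 fell (miR-150-5p) in colesevelam against vehicle, 0 rose and 1 fell in vehicle against lean, and 1 rose and 2 fell in colesevelam against lean. Of all tested miRNAs 7.14%, 3.57% and 11.6% were called higher in these comparisons. Of 2 endothelial miRNAs edgeR and DESeq2 called 0 in each comparison, and 1 had an unadjusted edgeR p under 0.05, in vehicle against lean. Of 8 hepatocyte miRNAs edgeR called 1 lower in colesevelam against vehicle (miR-148a-5p), where DESeq2 called 0. That call was lost in 11 of 12 fits without a library and in 9 of 14 other settings. In vehicle against lean both tools called 0 of the 8. In colesevelam against lean edgeR called 1 lower (miR-122-3p), and DESeq2 called 1. In the same order of comparisons 2, 0 and 2 of the 8 had an unadjusted edgeR p under 0.05, beside 21.4%, 18.8% and 39.3% of all tested miRNAs. edgeR called 10.7%, 6.25% and 21.4% of all tested miRNAs, and 3.57%, 2.68% and 9.82% lower. Depth limits what can be seen: a library's count of 0 allowed up to 84.3 CPM in the shallowest library, above the mean of miR-144-3p in every group.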
